A study of Mus musculus with 28 samples.

Results

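The cytosolic ribosomal protein genes were examined in RNA sequencing of whole mouse liver. They were chosen by name and level: gene symbols beginning Rpl or Rps with a number, together with Rplp0, Rplp1, Rplp2 and Rpsa, without pseudogene symbols containing -ps and without the Rps6k kinases, and with a mean of at least 10 CPM, the library's counts scaled to a common total, over all 28 livers. Of the 32544 genes in the tables, 365 carried a matching symbol, 92 were left after the pseudogene and kinase symbols were dropped, and 79 reached the level. These 79 members are 47 genes of the large and 32 of the small ribosomal subunit. By name, 74 encode a standard ribosomal protein and 5 are relatives: Rps4l, Rpl37rt, Rpl7l1, Rps27l and Rpl36al, of which the annotation lists Rps4l and Rpl37rt as transcribed processed pseudogenes. The members nearest above the limit were Rps4l at 11.0 CPM and Rpl5 at 14.5 CPM, and the rows nearest below it were Rpl22l1 at 8.34 CPM and Rps19bp1 at 7.28 CPM. Among the 13 rows below it were 3 standard genes, Rps12 at 0.302 CPM, Rpl27 at 3.98 CPM and Rpl12 at 6.40 CPM. The symbol rule also leaves out genes such as Fau and Rack1, which encode ribosomal proteins under other names.

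All 28 animals were C57BL/6 mice, 13 weeks old by the labels. Knockout mice (KO) lack the transcription factor c-Myc in endothelial cells, and control mice (CT) carry the floxed alleles. Both received tamoxifen, which switches on Cre, at 5 weeks of age, and 2 weeks later were fed for 5 weeks either HFC, rich in fat and cholesterol, or the low-fat control diet CTD. Added together, these times come short of the 13 weeks in the labels, and the difference was not resolved. The promoter that drives Cre is not given in the sources used here. Each sex had 4 groups, KO HFC, CT HFC, KO CTD and CT CTD, with 4 males or 3 females in each, and was analysed on its own. Male libraries held 22154774 to 22652285 counts and female libraries 18741939 to 19195502 counts. The numbers of the CTD animals (298 to 320) and of the HFC animals (412 to 543) lie in separate ranges, so whatever goes with the numbering cannot be told apart from the diet. Every animal is its own liver and its own library, and an animal is named below by its group and the number in its label. The deletion is in endothelial cells and cannot be read from these whole livers. In males Myc had 20.02, 8.90, 5.62 and 11.2 CPM in KO HFC and 6.29, 3.58, 11.3 and 12.4 CPM in CT HFC livers, and 20.07, 6.87, 14.9 and 3.09 CPM in KO CTD and 6.09, 4.73, 7.80 and 7.05 CPM in CT CTD livers. In females it had 12.1, 4.64 and 13.3 CPM in KO HFC and 9.70, 5.46 and 4.37 CPM in CT HFC livers, and 7.26, 20.5 and 7.80 CPM in KO CTD and 5.44, 12.0 and 4.59 CPM in CT CTD livers. These values overlapped between KO and CT in each pair, and none of the 4 comparisons passed the test.

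A ribosome consists of a large and a small subunit, built in the nucleolus and cytoplasm from ribosomal RNA and the ribosomal proteins. Ribosomal protein genes are expressed in every cell, and in hepatocytes, which export most plasma proteins, their messages are abundant. Most of these messages are known as TOP mRNAs, since they begin with a cytidine followed by a run of pyrimidines, and their translation depends on the kinase complex mTORC1. Myc is known in dividing cells as an activator of ribosome production, including the ribosomal protein genes.

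The start sites of the members show this pyrimidine signature to very different degrees. The first set of sequences shows 15 bases before and 15 bases from the annotated start, with the unbroken pyrimidine run across the start in capitals, for members that had a long run and for members that recur in the comparisons of diet and genotype. They come from RefSeq on GRCm38.p6 and read 5′ to 3′ on the gene's strand. Rpl27a lies at chr7:109519180-109519209 on the plus strand, Rplp2 at chr7:141447636-141447665 on the plus strand, Rps15a at chr7:118116133-118116162 on the minus strand and Rps27 at chr3:90213634-90213663 on the minus strand. Rps2 lies at chr17:24720048-24720077 on the plus strand, Rpl36al at chr12:69184053-69184082 on the minus strand, Rpl7l1 at chr17:46782642-46782671 on the minus strand and one of the Rps27l starts at chr9:66946071-66946100 on the plus strand.
Rpl27a: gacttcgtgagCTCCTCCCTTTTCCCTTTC
Rplp2: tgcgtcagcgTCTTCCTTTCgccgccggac
Rps15a: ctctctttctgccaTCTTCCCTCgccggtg
Rps27: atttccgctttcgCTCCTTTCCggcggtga
Rps2: aggcagtcgagaTCTCgcgcttcttggagc
Rpl7l1: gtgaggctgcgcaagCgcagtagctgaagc
Rpl36al: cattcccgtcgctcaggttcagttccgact
Rps27l: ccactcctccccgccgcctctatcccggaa

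A promoter entry was found for 58 of the 79 members, 9 of them with more than 1 entry, which gave 69 entries. Rps20 and Rplp1 are among the 21 members with none. A cytidine at the annotated start followed by at least 4 pyrimidines was found in 13 of the 69 entries (18.8%), against 2.51% of all 32851 entries. When the run could begin within 5 bases of the start, the counts were 29 of 69 entries (42%) against 18.3% of all entries. In the window of 250 bases before to 50 bases from the start, searched on both strands, the E-box CACGTG, the sequence that Myc and its partner Max bind, was found in 8 of 69 entries (11.6%) against 7.15% of all entries. CCGGAAG, an ETS-type motif, was found in 26 of 69 (37.7%) against 8.86%, and AAGATGGC, the core of the YY1 motif, in 8 of 69 (11.6%) against 2.75%. TATAAA was found in 6 of 69 (8.7%) against 13.6%. These are matches of letters in a window and say nothing of binding.

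Member levels were first compared per length, as CPM divided by the median length in kilobases of each gene's annotated protein-coding transcripts. Rplp1, a protein of the ribosomal stalk that recruits translation factors, was highest in both sexes, at 659 CPM per kilobase in females and 370 in males. Next came Rps2, a small-subunit protein on the mRNA path, and Rpl41, the smallest ribosomal protein, with Rps2 ahead in females (599 against 575) and Rpl41 ahead in males (353 against 324). Rpl5, which carries the 5S ribosomal RNA into the large subunit, was lowest at 7.81 in females and 6.48 in males. Rps15a had 13.1 in females and 9.74 in males with an annotated length of 5130 bases, the longest among the members, and Rps4l had 14.7 in females and 11.2 in males. The sexes come from separate tables, and no test was made between them.

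The low place of Rpl5 goes with a second row of the tables. Gm15500, a processed copy of Rpl5, averaged 209 CPM against 14.5 CPM in the Rpl5 row, and likewise Rpl10-ps3 averaged 390 CPM against 46.2 CPM in the row of Rpl10, a protein next to the site of peptide bond formation. In each of these pairs the coding sequences, 894 and 645 aligned bases, are identical, so reads from them cannot be told apart within the coding sequence. Rps20 differs from its copy Gm4332 by a single substitution, G324A, over 346 aligned bases, with the base of Rps20 first and positions counted from 1 at the A of the start codon. The second set of sequences shows 60 coding bases of each of these genes and copies, from GENCODE vM21 on GRCm38, with the differing base in capitals. Rpl5 spans chr5:107900502-107909005 on the plus strand and Gm15500 chr7:114705217-114706235 on the minus strand. Rpl10 spans chrX:74270812-74273135 on the plus strand and Rpl10-ps3 chr9:50344201-50344968 on the minus strand. Rps20 spans chr4:3831334-3835665 on the minus strand and Gm4332 chr3:119709516-119709861 on the plus strand.
Rpl5, bases 1 to 60: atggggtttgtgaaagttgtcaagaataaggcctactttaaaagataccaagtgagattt
Gm15500, bases 1 to 60: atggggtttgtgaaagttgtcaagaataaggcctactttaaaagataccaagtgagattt
Rpl10, bases 1 to 60: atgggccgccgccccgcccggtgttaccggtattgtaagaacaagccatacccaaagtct
Rpl10-ps3, bases 1 to 60: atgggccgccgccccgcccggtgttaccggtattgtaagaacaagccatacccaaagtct
Rps20, bases 294 to 353: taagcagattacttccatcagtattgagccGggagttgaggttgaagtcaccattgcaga
Gm4332, bases 294 to 353: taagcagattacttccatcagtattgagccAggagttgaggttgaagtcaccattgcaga

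Copies of this kind were searched for 80 ribosomal protein genes. In all, 807 other rows of the tables matched one of them over at least 70% of the coding sequence at 90% identity or more, and 28 of those rows reached a mean of 1 CPM, 20 of them 10 CPM. Of the 28, 18 had no mismatch or gap. Copies of members summed to 1220 CPM, beside 11236 CPM for the members themselves. Of the 74 standard members, 14 had at least 10% of their family's reads in copy rows and 53 had under 1% there. For the 3 standard genes below 10 CPM, the copies held most reads: Rps12-ps3 had 109 CPM beside 0.302 CPM for Rps12, Gm10275 had 143 CPM beside 6.40 CPM for Rpl12, and Rpl27-ps3 had 71.0 CPM beside 3.98 CPM for Rpl27. The share of a family's reads in the gene's own row moved between animals, from 3.58% to 8.42% for Rpl5 and from 8.56% to 14.5% for Rpl10 in females, and from 5.85% to 8.37% for Rpl5 and from 8.35% to 12.3% for Rpl10 in males. Counts of members with such copies are therefore uncertain, and for several of them the sum over the family is given beside the own row below. How the authors assigned reads that match several genes is not given in the sources used here.

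**Figure D1:**
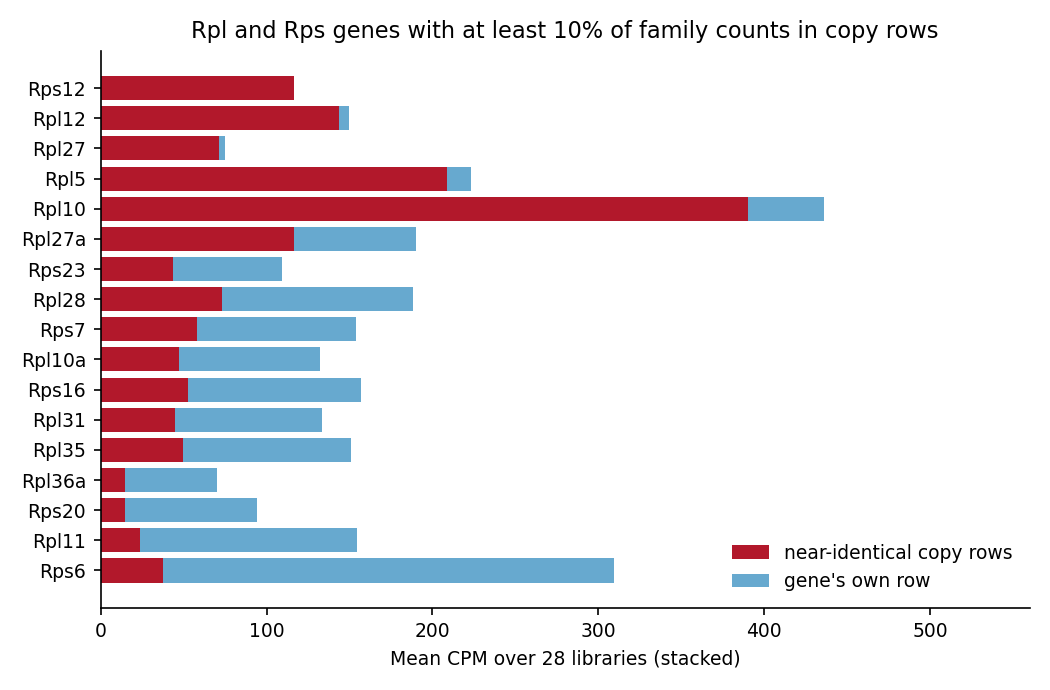
Mean CPM over the 28 livers of the genes with an Rpl or Rps symbol and at least 10% of their family's counts in copy rows, as stacked bars with the near-identical copy rows in red and the gene's own row in blue. For Rps12, Rpl12, Rpl27, Rpl5 and Rpl10 the red part makes up most of the bar.

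Within groups, members varied less than all tested genes of at least 10 CPM in males and more in females, by their medians. That set includes the members and was not matched to their level. After scaling each library by its TMM factor, the scale of all values below, the median coefficient of variation within groups was 6.37% over members and 8.38% over all 7803 genes of at least 10 CPM in males, with a range over members from 3.17% (Rpl19) to 24.0% (Rps4l). In females it was 12.1% over members and 10.8% over 7631 genes, from 3.53% (Rpl9) to 21.6% (Rps27l). Between the lowest and the highest animal of a sex the median member differed 1.30-fold in males and 1.69-fold in females. Rplp0, the protein that anchors the stalk, had the narrowest range in females, 1.20-fold, and Rps4l the widest, 3.07-fold.

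The members' share of all library counts averaged higher on HFC than on CTD in both male genotypes, by their means without a test. It was 1.02%, 0.961%, 0.890% and 0.986% in KO HFC males (414, 415, 539, 540) and 0.927%, 0.904%, 1.04% and 0.864% in CT HFC males (416, 417, 418, 543), against 0.849%, 0.773%, 0.830% and 0.772% in KO CTD males (298, 303, 304, 311) and 0.826%, 0.785%, 0.746% and 0.959% in CT CTD males (301, 305, 313, 320). The male KO groups did not overlap and the male CT groups did, through CT CTD 320. In females the share was 1.97%, 1.29% and 1.74% in KO HFC livers (412, 413, 419) and 1.45%, 1.47% and 1.36% in CT HFC livers (420, 510, 512), against 1.31%, 1.13% and 1.25% in KO CTD livers (307, 309, 317) and 1.55%, 1.39% and 1.42% in CT CTD livers (306, 308, 318). Among females KO HFC 413 lay below every CT animal and KO HFC 412 above all others. A share also depends on the other genes of the library. After TMM scaling the summed member level of males was 8688 ± 283 CPM in KO HFC and 8694 ± 568 CPM in CT HFC livers, against 8788 ± 234 CPM in KO CTD and 9016 ± 452 CPM in CT CTD livers (SD, n = 4 each), so that all 4 means lay within the spread of CT HFC animals. In females it was 14670 ± 2703 CPM in KO HFC and 13150 ± 426 CPM in CT HFC livers, against 13430 ± 1348 CPM in KO CTD and 16413 ± 1746 CPM in CT CTD livers (SD, n = 3 each).

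**Figure D2:**
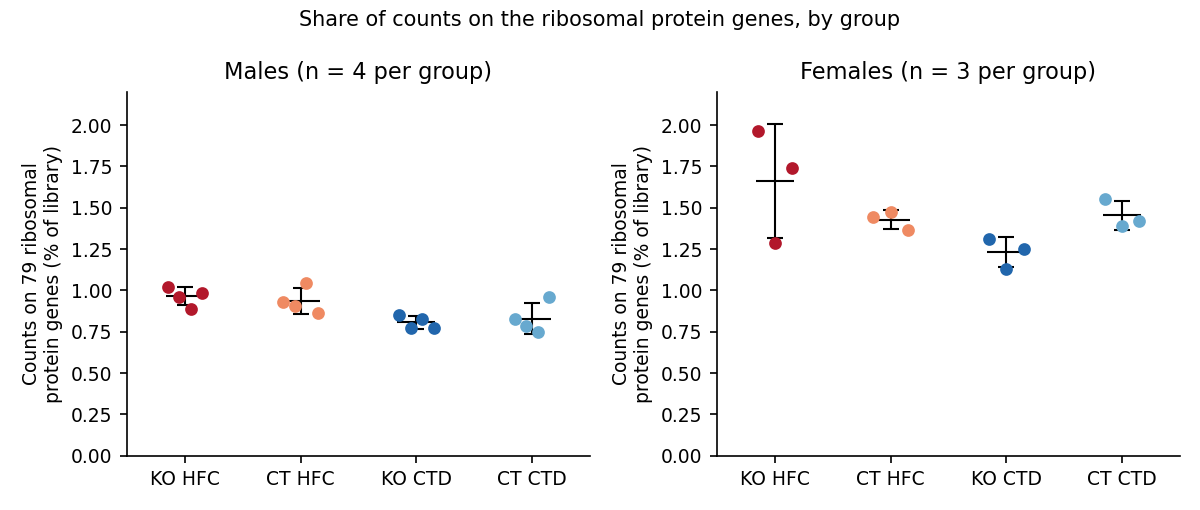
Share of library counts in the 79 members, in percent, for each animal of each group, with the group mean and SD. The male KO HFC animals, 0.890% to 1.02%, lie above all KO CTD animals, and the female KO HFC animals spread most, 1.29% to 1.97%.

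In male controls, 5 of the 79 members passed the test for a difference between HFC and CTD livers, 2 higher and 3 lower on HFC. That is 6.33% of the members, against 20% of the 14078 genes tested, of which 10.6% were higher and 9.4% lower. Whole liver tissue was measured, so fewer cells of a type and less RNA per cell cannot be told apart. The member with the smallest p was Rpl27a (chr7:109519147-109522367, plus strand), a large-subunit protein, with 41.2, 44.5, 42.8 and 39.4 CPM in CT HFC livers against 54.9, 50.2, 51.3 and 51.0 CPM in CT CTD livers. No HFC animal reached the lowest CTD animal, and the log2 fold change was −0.31 (SE 0.07, adjusted p = 0.00827). Rpl36al (chr12:69182731-69184083, minus strand), a relative of Rpl36a, had 84.9, 93.7, 85.3 and 77.1 CPM in CT HFC livers against 104, 109, 99.5 and 106 CPM in CT CTD livers, again without overlap, and fell by 0.29 on the log2 scale (adjusted p = 0.0122). Rps2 (chr17:24718116-24721929, plus strand) averaged 301 ± 24.7 CPM in CT HFC livers and 352 ± 22.8 CPM in CT CTD livers (SD, n = 4 each; log2 fold change −0.23, adjusted p = 0.0391). Its groups met closely without overlap, the highest HFC animal at 329 CPM and the lowest CTD animal at 331 CPM.

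Both members that rose in male controls belong to the small subunit. Rps20 had 62.8, 68.1, 70.4 and 56.2 CPM in CT HFC livers against 53.0, 53.1, 50.4 and 58.2 CPM in CT CTD livers, a log2 fold change of 0.26 (SE 0.08, adjusted p = 0.0280) with groups that overlapped through CT HFC 543 and CT CTD 320. Rps14 (chromosome 18, 60747098 to 60778546, plus strand), known in humans for its loss in the 5q- syndrome, had 93.8, 103, 109 and 96.5 CPM in CT HFC livers against 89.95, 86.1, 87.7 and 90.3 CPM in CT CTD livers, without overlap (log2 fold change 0.18, SE 0.06, adjusted p = 0.0441). When reads of the copy Gm4332 were added to Rps20, the log2 fold change was 0.20 and the adjusted p 0.0938, so this call rests on the own row. With the copies of Rpl27a added, its log2 fold change was −0.26 (adjusted p = 0.0107). In a fit of these 2 groups alone Rpl27a and Rpl36al passed, and Rps20, Rps14 and Rps2 did not (adjusted p = 0.0528, 0.0852 and 0.108). Without CT HFC 543 and the KO HFC animals 539 and 540, whose numbers lie apart from the other HFC males, Rps2 did not pass (adjusted p = 0.189). Leaving out 1 animal at a time, Rpl27a and Rpl36al passed in all 8 fits. They were the only members to pass without CT CTD 301, CT CTD 305 or CT HFC 417, where 2116, 1963 and 2723 of all genes passed. Rps20 did not pass without CT CTD 301, 305 or 313 or CT HFC 417 or 418 (adjusted p 0.0644 to 0.106), Rps14 without CT CTD 301, 305 or 313 or CT HFC 417, 418 or 543 (0.0518 to 0.157), and Rps2 without CT CTD 301, 305 or 320 or CT HFC 416, 417 or 543 (0.0512 to 0.126).

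In male knockouts, 4 members passed between HFC and CTD livers, 1 higher and 3 lower on HFC, or 5.06% against 29.1% of all genes tested (15.5% higher, 13.6% lower). Rps20 had 63.4, 69.3, 64.3 and 64.7 CPM in KO HFC livers against 62.2, 51.6, 51.5 and 53.7 CPM in KO CTD livers. Every HFC animal was above every CTD animal (log2 fold change 0.26, adjusted p = 0.0217), and with copy reads added the log2 fold change was 0.26 (adjusted p = 0.0239). Rpl27a had 39.6, 37.9, 41.6 and 48.4 CPM in KO HFC livers against 50.5, 51.5, 50.7 and 45.4 CPM in KO CTD livers, with KO HFC 540 and KO CTD 311 crossing (log2 fold change −0.24, adjusted p = 0.0207). With its copies it had −0.21 (adjusted p = 0.0246). Rpl7l1 (chr17:46773907-46782672, minus strand), a relative of Rpl7, had 36.0, 36.9, 39.3 and 35.8 CPM in KO HFC livers against 43.0, 45.0, 41.1 and 42.3 CPM in KO CTD livers, without overlap (log2 fold change −0.21, SE 0.07, adjusted p = 0.0298). Rps2 averaged 296 ± 9.44 CPM in KO HFC livers and 343 ± 9.94 CPM in KO CTD livers (SD, n = 4 each), also without overlap (log2 fold change −0.21, adjusted p = 0.0409).

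Rps20, Rpl27a and Rps2 thus passed in the same direction in both male genotypes, whose animals differ but which were fitted together. In a fit of the KO groups alone Rps20 and Rpl39 passed, and Rpl27a, Rpl7l1 and Rps2 did not (adjusted p = 0.0837, 0.05003 and 0.0884). Without the 3 HFC animals of the higher numbers, Rpl7l1 and Rps2 did not pass (adjusted p = 0.109 and 0.172). In knockouts each of the 4 calls depended on single animals. Rps20 did not pass without KO CTD 303, 304 or 311 or KO HFC 415 (adjusted p 0.0533 to 0.0704), Rpl27a without KO CTD 303 or 304 or KO HFC 414 or 415 (0.0509 to 0.0682), Rpl7l1 without KO CTD 298, 303 or 311 or KO HFC 414, 415 or 540 (0.0510 to 0.0899), and Rps2 without any of the 8 (0.05001 to 0.0925). By edgeR no member passed without KO CTD 303 or KO HFC 415, 1 passed without KO HFC 414, and 2 passed without KO CTD 298, KO CTD 304 or KO HFC 540. In these fits 3272, 3939, 3064, 3639, 3554 and 3602 of all genes passed, in that order.

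Library totals in place of TMM moved all genes together. On that scale the median log2 fold change of all genes was 0.22 in male controls and 0.26 in male knockouts, and the members' medians were 0.18 and 0.26. In controls 19 members passed as higher (24.1%, against 29.3% of all genes) and 0 as lower (2.91% of all genes). In knockouts 43 passed as higher (54.4%, against 39.6% of all genes) and 0 as lower (3.63% of all genes). In knockouts Rpl27a then had a log2 fold change of 0.03, Rpl7l1 of 0.06 and Rps2 of 0.06, and in controls Rpl27a had −0.08, Rpl36al −0.07 and Rps2 0.00. Rps20 stayed higher, at 0.53 in knockouts and 0.49 in controls, and so did Rps14 in controls at 0.41. Relative to the median of all genes, the lower members were lower on both scales. A change of scale moves all genes together and leaves this place nearly unchanged, so the second scale adds no support. Under DESeq2's size factors each of these members kept its sign.

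**Figure D3:**
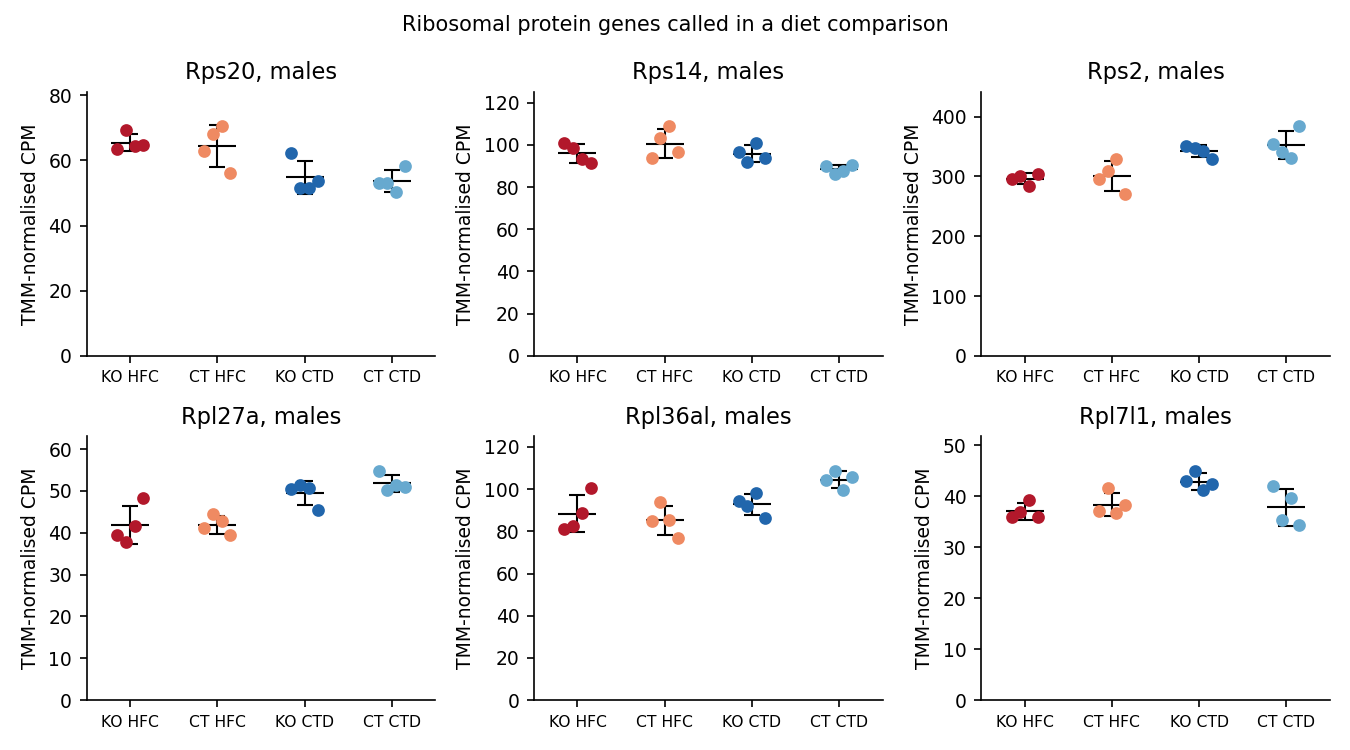
TMM-scaled CPM of each male animal for the 6 members that passed in either male diet comparison, with group means and SD. Rps20 is higher and Rpl27a and Rps2 are lower in HFC than in CTD livers of both genotypes on this scale, but with library totals Rpl27a and Rps2 had log2 fold changes of 0.03 and 0.06 in KO males.

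Beyond these members the male diet differences were small. In controls 76 of 79 members (96.2%) lay within 0.25 on the log2 scale, against 58.2% of all genes, and in knockouts 78 of 79 (98.7%) against 54.4%. The median log2 fold change over members was −0.04 in controls and −0.01 in knockouts, beside −0.01 and −0.02 over all genes. At an unadjusted p under 0.05, 3 members were higher and 7 lower in controls (17% and 16.6% of all genes), and 2 were higher and 4 lower in knockouts (20.2% and 19.5%). Groups did not overlap for 1 member higher and 6 lower in controls (11.4% and 10.2% of all genes), and for 2 higher and 3 lower in knockouts (15.4% and 14.7%).

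By role, none of the 3 stalk proteins passed in males. Rplp0 had log2 fold changes of −0.02 in each genotype. Rplp1 had 170, 182, 196 and 154 CPM in CT HFC livers against 210, 207, 167 and 246 CPM in CT CTD livers (log2 fold change −0.24, adjusted p = 0.121), where the groups overlapped through CT CTD 313, and 0.01 in knockouts. Rplp2 had −0.18 in controls (adjusted p = 0.163) and −0.04 in knockouts. Rpl5 and Rpl11, which with the 5S RNA form the particle that also restrains the p53 regulator Mdm2, had −0.12 and 0.22 in controls (adjusted p = 0.483 and 0.0918) and −0.13 and 0.00 in knockouts. With their copies they had −0.03 and 0.06 in controls and −0.06 and 0.04 in knockouts. Among the relatives, Rps27l had −0.01 in controls and −0.13 in knockouts, and Rps4l 0.06 and −0.07. Set against 20% of all genes called in controls and 29.1% in knockouts, none of the 18 members that are Diamond-Blackfan anaemia genes in humans passed in either male genotype, with medians of −0.05 in controls and 0.01 in knockouts. Neither did any of the 9 proteins around the peptide exit tunnel, with medians of −0.06 and 0.02. Of the 8 proteins along the mRNA path, Rps2 alone passed.

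Between genotypes, no member passed in males on either diet. On HFC the edgeR test called 0 of 14078 genes (0% higher and 0% lower), 653 genes had an unadjusted p under 0.05 (2.86% higher, 1.78% lower), none of them a member, and DESeq2 called 3 genes and 0 members. The smallest p was that of Rps27, a zinc-finger protein of the small subunit, with 91.5, 96.6, 96.6 and 91.8 CPM in KO HFC livers against 102, 103, 108 and 99.6 CPM in CT HFC livers (log2 fold change −0.13, adjusted p = 0.958). It was the single member whose groups did not overlap, 1 of 79, against 1.09% of all genes higher and 1.07% lower without overlap. Rps21 had a log2 fold change of −0.15 and Rpl36 of −0.22 (adjusted p = 0.958 for both). All 79 members lay within 0.25 on the log2 scale (80.9% of all genes), with a median of 0.00.

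On CTD, edgeR again called 0 genes in males. Here 949 genes had an unadjusted p under 0.05 (2.83% higher, 3.91% lower), among them 2 members higher and 3 lower in knockouts, and DESeq2 called 11 genes and 0 members. Rpl7l1 had 43.0, 45.0, 41.1 and 42.3 CPM in KO CTD livers against 41.9, 35.3, 39.6 and 34.3 CPM in CT CTD livers, with CT CTD 301 inside the KO range (log2 fold change 0.18, adjusted p = 0.730). Rpl36al had −0.17 (adjusted p = 0.735) and Rpl11 0.19 (adjusted p = 0.738). Groups did not overlap for 1 member higher and 2 lower, against 1.94% and 2.05% of all genes. The difference of the diet effects between genotypes, knockout minus control, passed for 0 genes by edgeR and 5 by DESeq2, none of them a member. At an unadjusted p under 0.05 it was positive for 2 members and negative for 1, of 852 genes in all (4.08% positive, 1.97% negative). Rpl7l1 had −0.23 (adjusted p = 0.803), Rps16 0.24 and Rpl39 0.26, and the median over members was 0.03.

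**Figure D4:**
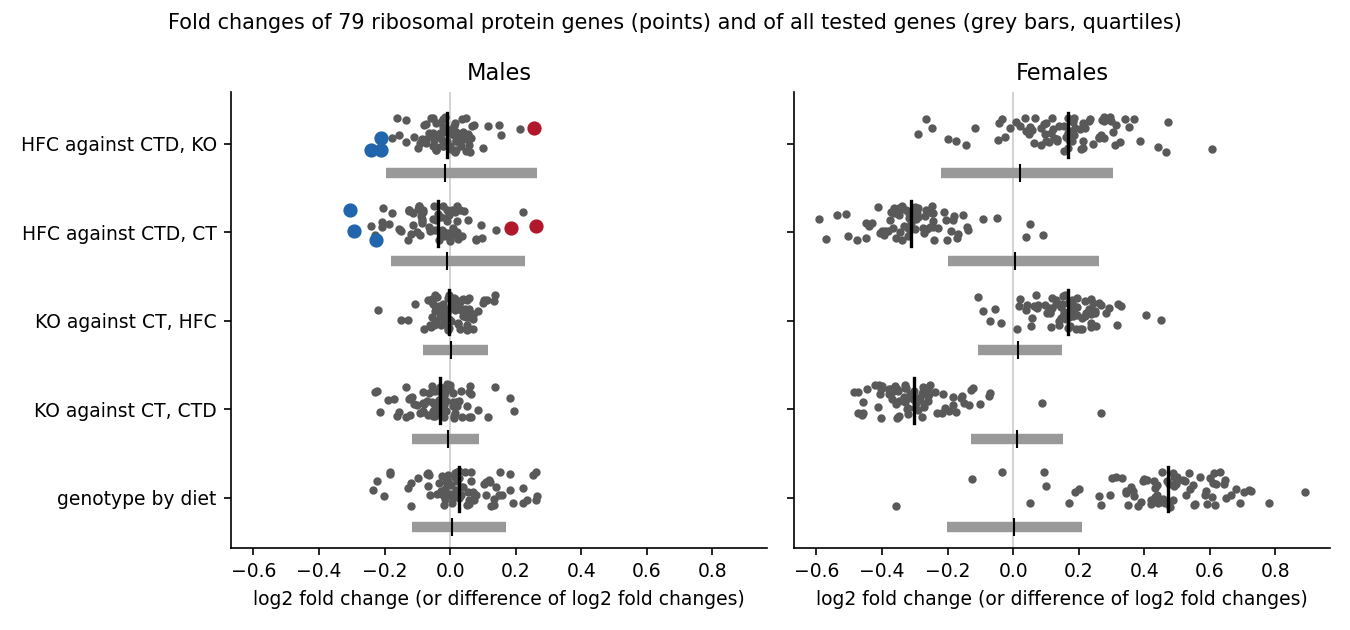
Log2 fold changes of the 79 members in each comparison, 1 point per member, with a black line at their median, blue and red points for members that passed as lower and higher, and grey bars for the quartiles and median of all genes tested. Male members lie close to 0 in every comparison, and female members lie mostly below 0 for CT HFC against CT CTD and for KO CTD against CT CTD, with medians of −0.31 and −0.30 (−0.02 and −0.25 with library totals).

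In female controls most members had lower values on HFC, and none passed the test. Of 79 members, 76 had a negative log2 fold change, all but Rpl5, Rps27l and Rps4l, and the median was −0.31 beside 0.00 over all 13999 genes. edgeR called 0 members, against 2.19% of all genes (307 genes, 0.936% higher and 1.26% lower). At an unadjusted p under 0.05, 0 members were higher and 21 lower (10.6% and 9.66% of all genes), and groups did not overlap for 0 members higher and 52 lower (14.3% and 14.1%). DESeq2 called 4 members lower, Rpl27a, Rpl4, Rplp1 and Rps2. Members share their libraries, so these counts are not independent of each other. These 4 are 5.06% of the members, against 6.23% of all genes by that tool (3.44% lower). In a fit of the CT groups alone Rpl27a passed (adjusted p = 0.0339). With library totals the members' median was −0.02, beside a median of 0.30 over all genes.

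The members with the smallest p in female controls included Rps2 and Rpl27a, which had passed in males. Rps2 had 473, 486 and 547 CPM in CT HFC livers against 832, 821 and 619 CPM in CT CTD livers, without overlap (log2 fold change −0.59, SE 0.17, adjusted p = 0.0892). Rpl27a had 91.0, 91.6 and 92.2 CPM in CT HFC livers against 158, 120 and 131 CPM in CT CTD livers (log2 fold change −0.57, adjusted p = 0.0959, and −0.58 with its copies, adjusted p = 0.101). The 3 HFC animals were nearly equal and all below the lowest CTD animal. Rplp1 had 270, 262 and 303 CPM in CT HFC livers against 431, 388 and 365 CPM in CT CTD livers, again apart (log2 fold change −0.50, adjusted p = 0.122). Rplp0 lay closer, with 377, 383 and 351 CPM in CT HFC livers against 401, 417 and 403 CPM in CT CTD livers (log2 fold change −0.14, adjusted p = 0.564).

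In female knockouts 67 of 79 members had a positive log2 fold change on HFC against CTD, with a median log2 fold change of 0.17 beside 0.02 over all genes. edgeR called 0 members, against 8.59% of all genes (3.94% higher, 4.65% lower), and DESeq2 called Rpl3 alone, as lower (6.78% of all genes lower by that tool). At an unadjusted p under 0.05, 3 members were higher and 1 lower (13.6% and 12.1% of all genes), and groups did not overlap for 1 higher and 2 lower (12.2% and 14.1%). Rpl36al had 157, 139 and 162 CPM in KO HFC livers against 133, 90.7 and 114 CPM in KO CTD livers, without overlap (log2 fold change 0.44, SE 0.16, adjusted p = 0.103). Rps27l, a relative of Rps27 known as a p53 target, had 99.2, 54.9 and 88.5 CPM in KO HFC livers against 66.4, 43.4 and 49.5 CPM in KO CTD livers, where KO HFC 413 lay inside the CTD range (log2 fold change 0.61, adjusted p = 0.109). Rpl3, a large-subunit protein near the peptidyl transferase centre, went the other way, with 194, 203 and 222 CPM in KO HFC livers against 249, 245 and 263 CPM in KO CTD livers (log2 fold change −0.29, adjusted p = 0.147). Without KO HFC 413, 10 members (12.7%) passed as higher on HFC and 0 as lower, against 9.85% of all genes higher and 8.9% lower in that fit. They were Rpl5, Rpl19, Rpl35, Rpl37, Rpl38, Rps15a, Rps19, Rps20, Rps23 and Rps27l. The median was 0.31 without that animal, 0.04 without KO HFC 412 and 0.09 without KO CTD 309. With library totals the median was 0.48, beside 0.32 over all genes, and 42 members (53.2%) passed as higher, against 24% of all genes.

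Comparing genotypes, female knockouts on HFC had a higher mean than controls on HFC, as a positive log2 fold change, for 74 of 79 members, with a median of 0.17 beside 0.01. These KO animals carry the numbers 412 to 419 and the CT animals 420 to 512, so numbering and genotype cannot be told apart here. edgeR and DESeq2 called 0 genes each, and 311 genes had an unadjusted p under 0.05 (1.14% higher, 1.09% lower), 1 of them a member. That member, Rpl10, had 77.0, 62.99 and 65.7 CPM in KO HFC livers against 44.9, 50.8 and 54.7 CPM in CT HFC livers, without overlap (log2 fold change 0.45, SE 0.17, adjusted p = 0.99994). With its copies added, the Rpl10 family had a log2 fold change of 0.09. Groups did not overlap for 3 members higher, Rpl10, Rpl13 and Rpl36al, and 0 lower, against 2.8% and 2.66% of all genes. Rpl13 averaged 187 CPM in KO HFC livers and 160 CPM in CT HFC livers, and Rpl39, at the exit tunnel, had a log2 fold change of 0.41. The median was 0.31 without KO HFC 413 and 0.04 without KO HFC 412.

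On CTD, 77 of 79 members had a negative log2 fold change in female knockouts against controls, all but Rpl7l1 and Rps4l, with a median log2 fold change of −0.30 beside 0.01. edgeR and DESeq2 called 0 genes each, and 446 genes had an unadjusted p under 0.05 (1.42% higher, 1.76% lower), 16 of them members, all lower. Groups did not overlap for 0 members higher and 29 lower, against 4.48% and 4.7% of all genes. Rps24 had 238, 189 and 219 CPM in KO CTD livers against 345, 239 and 313 CPM in CT CTD livers, where the lowest CT animal stood just above the highest KO animal (log2 fold change −0.47, adjusted p = 0.999). Rps15a had 63.2, 50.3 and 61.8 CPM in KO CTD livers against 80.3, 67.2 and 80.5 CPM in CT CTD livers, without overlap (log2 fold change −0.38, adjusted p = 0.999). Rpl37rt averaged 19.4 ± 2.05 CPM in KO CTD livers and 26.7 ± 4.19 CPM in CT CTD livers (SD, n = 3 each; log2 fold change −0.46, adjusted p = 0.999).

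The diet effect in female knockouts minus that in female controls was positive for 76 of 79 members, all but Rpl3, Rpl7l1 and Rps4l, with a median of 0.47 on the log2 scale beside 0.00 over all genes. No gene passed by edgeR or DESeq2. At an unadjusted p under 0.05 it was positive for 29 members and negative for 0, of 546 genes in all (2.31% positive, 1.59% negative). Rpl27a had 0.70 (SE 0.24; 0.59 with its copies), Rpl36al 0.63 and Rps15a 0.61, each with an adjusted p of 0.991, and the largest was Rpl39 at 0.89. This contrast is built from the same 12 livers as the 4 female comparisons, and the 2 comparisons with CT CTD share that group, so their medians of −0.31 and −0.30 do not support one another.

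Particular female livers stood at the ends of the range for many members. CT CTD 306 had the highest value of all 12 females for 49 members and KO HFC 412 for 21. KO HFC 413 had the lowest value for 38 members and KO CTD 309 for 32. Without CT CTD 306 the median log2 fold change over members was −0.22 for CT HFC against CT CTD and −0.21 for KO CTD against CT CTD. Other short transcripts moved in the same livers. The members are short, with a median of 774 bases against 1559 for all annotated genes and 62 of 79 under 1000 bases. Mitochondrially encoded, major urinary protein and copy rows were left out of the other genes in this share. Other genes under 1000 bases took 10.4% of counts in KO HFC 412, 7.38% in KO HFC 413, 6.61% in KO CTD 309 and 9.89% in CT CTD 306. Their mean share was 8.85% ± 1.497 in KO HFC and 8.21% ± 0.654 in CT HFC livers, against 7.47% ± 0.818 in KO CTD and 8.90% ± 0.858 in CT CTD livers (SD, n = 3 each).

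Split by length, genes other than members and copies and of at least 10 CPM showed a graded difference in the same female comparisons. Mitochondrially encoded and major urinary protein genes were kept in this split. For CT HFC against CT CTD their median log2 fold change was −0.32 for 119 genes under 600 bases, −0.18 for 473 genes of 600 to under 1000 bases, −0.10 for 1825 genes of 1000 to under 2000 bases and 0.00 for 4944 longer genes. Members had −0.36 (22 genes), −0.29 (40 genes), −0.32 (13 genes) and −0.25 (4 genes) in the same classes, the last 2 with few members. For KO CTD against CT CTD the other genes had −0.31, −0.19, −0.07 and 0.04, and members −0.36, −0.28, −0.26 and −0.36. In the difference of diet effects the other genes had 0.38, 0.25, 0.06 and −0.06, and members 0.51, 0.44, 0.40 and 0.53. With an offset for transcript length in each library, the median over members was −0.14 for CT HFC against CT CTD, −0.11 for KO CTD against CT CTD and 0.20 for the difference of diet effects. It was 0.08 for KO HFC against KO CTD and 0.10 for KO HFC against CT HFC. In males, the corresponding medians of the shortest other genes and the shortest members were −0.19 and −0.08 for CT HFC against CT CTD. The part of transcript length or RNA quality in the female differences was not tested.

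**Figure D5:**
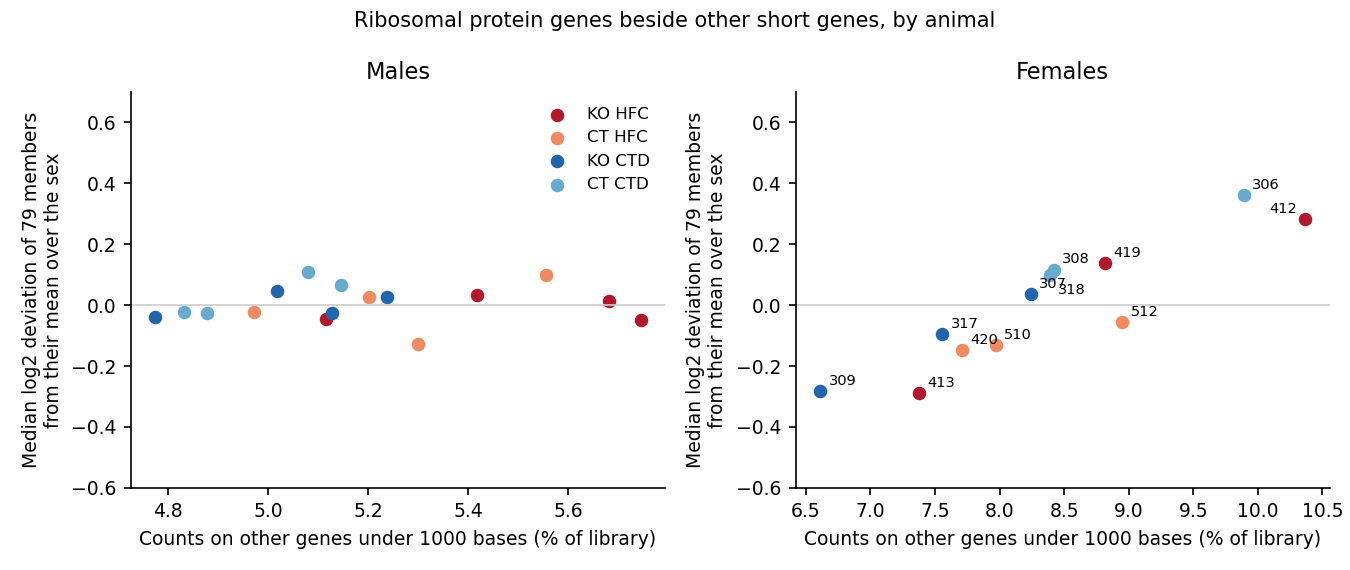
Median log2 deviation of the 79 members from their mean over the sex, against the share of library counts on other genes under 1000 bases, 1 point per animal, coloured by group. The other genes leave out mitochondrially encoded, major urinary protein and copy rows. In females CT CTD 306 and KO HFC 412 are high and KO CTD 309 and KO HFC 413 low in both measures.

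Fau and Rack1 did not pass in any comparison. In female controls Fau averaged 70.5 ± 12.0 CPM in HFC and 111 ± 17.3 CPM in CTD livers (SD, n = 3 each; log2 fold change −0.65, adjusted p = 0.0748). With its copies Fau had −0.53 (adjusted p = 0.156), and Rack1 had −0.25. Rpl12, below the level for members, had 0.46 in male knockouts on HFC against CTD (adjusted p = 0.0304) and 0.27 with its copies (adjusted p = 0.0869).

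Genes of the translation machinery outside the cytosolic ribosome were counted in the same fits, from lists made with earlier results of these data known. Mitochondrial ribosomal proteins, which build the separate ribosome of mitochondria, were counted in the same way. Of 77 on HFC in males, 1 rose and 12 fell in controls, and 0 rose and 17 fell in knockouts, with medians of −0.13 and −0.14. The lower ones are 15.6% and 22.1% of the list, against 9.4% and 13.6% of all genes. Mrps5 averaged 34.98 ± 1.17 CPM in CT HFC livers and 45.6 ± 2.51 CPM in CT CTD livers (SD, n = 4 each; log2 fold change −0.38, adjusted p = 0.00171), and Mrpl34 had −0.53 in knockouts (adjusted p = 2.47e-05). Mrps6 was the member of that list that rose, by 0.56 in male controls. In females 0 rose and 1 fell in controls (1.30%, against 1.26% of all genes lower). In female knockouts 1 rose and 1 fell (1.30% each, against 3.94% of all genes higher and 4.65% lower). Mrpl15 fell in both, with log2 fold changes of −0.64 (adjusted p = 0.0307) in controls and −0.60 (adjusted p = 0.0160) in knockouts. Their difference from the cytosolic ribosomal proteins was not tested.

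Of 36 translation initiation factors, 0 rose and 1 fell in male controls and 0 rose and 4 fell in male knockouts on HFC, which is 2.78% and 11.1% lower against 9.4% and 13.6% of all genes. Eif1, which guards start codon choice, averaged 167 ± 10.1 CPM in CT HFC livers and 226 ± 14.5 CPM in CT CTD livers (SD, n = 4 each; log2 fold change −0.43, adjusted p = 0.00122). In knockouts Eif1 had −0.39 and Eif4b, a cofactor of the helicase eIF4A, −0.36. None of the 9 elongation factors passed in any diet comparison, among them Eef1a1 and Eef2. Of 48 ribosome assembly and RNA polymerase I genes, 0 passed in male controls, and Noc2l and Nolc1 fell in male knockouts (4.17%, against 13.6% of all genes lower). In females 0 passed in controls, and Gnl3, a nucleolar GTP-binding protein, rose in knockouts with a log2 fold change of 0.60 (adjusted p = 0.0101). Gnl3 is 2.08% of the list, against 3.94% of all genes higher there. Of 19 genes of mTORC1 and of proteins that act on TOP mRNAs, Rptor and Tial1 fell in male knockouts, with −0.27 and −0.20, and none passed in the other 3 diet comparisons. The 2 that fell are 10.5% of the list, against 13.6% of all genes. Of 11 other TOP mRNAs, Vim rose and Cox4i1 fell in male knockouts (9.09% each, against 15.5% of all genes higher and 13.6% lower). In the Myc network, Mycl fell in both male genotypes, with −1.39 in controls and −0.97 in knockouts, Mlxipl rose in male controls with 0.37, and Mlx and Mycn fell in male knockouts. Of this list of 12, 8.33% rose and 8.33% fell in controls, against 10.6% and 9.4% of all genes. In knockouts 25% fell, against 13.6% of all genes. No gene of these lists passed in a comparison of genotypes or in the difference of diet effects, in either sex.

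Several lists of cell type markers changed in the same livers. Of all genes tested on HFC against CTD, 10.6% rose and 9.4% fell in male controls, and 15.5% rose and 13.6% fell in male knockouts. Of 24 macrophage and monocyte markers, 21 rose in male controls and 24 in male knockouts on HFC, and their summed level was 1470 to 1924 CPM in KO HFC and 1174 to 1862 CPM in CT HFC livers, against 493 to 608 CPM in KO CTD and 573 to 877 CPM in CT CTD livers. Of 16 hepatocyte markers, 4 fell in male controls and 8 in male knockouts, and their summed level was 79550 to 94754 CPM in KO HFC and 80129 to 101074 CPM in CT HFC livers, against 111086 to 130984 CPM in KO CTD and 93840 to 120415 CPM in CT CTD livers. Of 18 proliferation markers, 7 rose and 1 fell in male controls, and 14 rose and 1 fell in male knockouts. Of 20 endothelial markers, 1 rose in male controls (5%) and 3 in male knockouts (15%), and 0 fell. Of 12 stellate cell markers, 0 rose in male controls and 2 in male knockouts (16.7%), and 0 fell. In females 0 macrophage markers passed in either genotype, with median log2 fold changes of 0.84 in controls and 1.08 in knockouts. Of the hepatocyte markers, 2 fell in female controls (12.5%) and 9 in female knockouts (56.25%), against 1.26% and 4.65% of all genes lower. Of the endothelial markers, 0 passed in female controls and 1 rose in female knockouts (5%, against 3.94% of all genes higher). No marker of these lists was at 0 in all animals of a sex. The part of cell composition in the members' values was not tested.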

How the data were processed

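RNA of whole livers from 28 mice was sequenced, per the labels' protocols, on DNBSEQ libraries. Raw counts per gene and CPM (each count per library total) were deposited by the authors as separate male and female tables. The submitters' processing notes name FastQC, edgeR, GRCm38 and mm10; aligner, counting tool and strand setting are not stated there. The deposited CPM values, used for the level threshold of 10 CPM, differed from counts divided by library totals by at most 4.99e-06 in males and 4.44e-05 in females.

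Each sex was fitted on its own with edgeR 4.0.16 (R 4.3.3): filterByExpr, TMM factors, and a robust quasi-likelihood test over all 4 groups. P-values were Benjamini-Hochberg adjusted over all genes tested, and a gene passed at an adjusted p under 0.05. All 79 members were tested in both sexes. Standard errors are the log2 fold change divided by the root of the F statistic. TMM factors were 0.862 to 1.19 in males and 0.842 to 1.17 in females, higher in HFC libraries. Each animal counts as 1 replicate, and with 3 or 4 per group many small differences can be missed. The members and the gene lists were chosen with earlier results of these data known. Members named with values are up to 8 that passed in each direction of a comparison, or the 3 with the smallest p where none passed, the 3 stalk proteins, Rpl5, Rpl11, the relatives, those at the ends of the level range and those next to the threshold. Of other lists, up to 4 that passed or 2 with the smallest p were named. Other names were chosen after their values were seen. Copies were searched as transcripts of GENCODE vM21 on GRCm38, whose annotation held all 79 members and 96.5% of the tables' genes. The alternatives were library totals, DESeq2 1.42.0 size factors and its Wald test, TMM without members, no filter, only the groups compared, copies added, a length offset, in males HFC animals 539, 540 and 543 left out together, whose numbers lie apart, and leaving out each animal. The count test was tested on simulated data for HFC against CTD in controls, with 200 genes of at least 10 CPM changed in each sex, 50 per size. Changes of 0.25 on the log2 scale were recovered for 4% of changed genes in males and 0% in females. At 0.5 the recovery was 60% and 6%, and at 1 it was 98% and 74%. In the data themselves 2820 genes passed in male controls and 307 in female controls. The Benjamini-Hochberg threshold depends on how many genes change, so these rates need not hold for the real comparisons.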

Additional observations from a re-analysis of the deposited data

Results flagged for a closer look

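Single animals far from the rest of their group were looked for in 100 groups of 4 males, over 24 members and their summed share of counts. In 2 groups the gap of 1 animal to its nearest neighbour exceeded Dixon's critical fraction of the group's range, and chance gives about 1 group in 20. Rpl27a was at 45.4 CPM in male KO CTD 311, with the other 3 animals at 50.5 to 51.5 CPM. Rps24 was at 173 CPM in male KO CTD 304, with the other 3 at 160, 160 and 161 CPM. Neither animal was left out of the comparisons above, and the cause was not tested.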

How the results depend on the processing

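Library totals in place of TMM moved the median of all genes for HFC against CTD to 0.22 in male CT, 0.26 in male KO, 0.30 in female CT and 0.32 in female KO. The members' medians were then 0.18, 0.26, −0.018 and 0.48, and 19, 43, 0 and 42 members passed, all higher, against 29.3%, 39.6%, 12% and 24% of all genes. With that shift Rpl27a (0.033), Rpl7l1 (0.063) and Rps2 (0.065) in male KO and Rpl3 (0.011) in female KO changed sign and lay below the median of all genes. Without the filter, 3 members passed in male CT (Rpl27a, Rpl36al, Rps20) and 2 in male KO (Rpl27a, Rps20). Among all genes 2439 and 3757 passed there. With only the groups compared, 2 passed in male CT (Rpl27a, Rpl36al), 2 in male KO (Rpl39, Rps20) and 1 in female CT (Rpl27a). All genes that passed in these fits numbered 2240, 3610 and 804. Without male HFC 539, 540 and 543, 4 passed in CT and 3 in KO. The DESeq2 Wald test called 4 in female CT and 1 in female KO, beside 904 and 1838 of all genes. With the length offset, the medians were −0.14 in female CT for diet, −0.11 for female KO against CT on CTD and 0.20 for the female difference of diet effects, and Rps27l alone passed in female KO, 1 member. Without major urinary protein and mitochondrial rows, the members' mean share was 1.11% in KO HFC, 1.07% in CT HFC, 0.984% in KO CTD and 1.02% in CT CTD males, and 1.86% in KO HFC, 1.59% in CT HFC, 1.42% in KO CTD and 1.71% in CT CTD females. Leaving out 1 animal at a time gave 2 to 5 calls in male CT, 0 to 3 in male KO and 0 to 10 in female KO. Of all genes, 1963 to 2723 passed in the male CT fits with 2 member calls. In male KO 3064 to 4089 passed, and in the female KO fit with 10 member calls 2671 passed. Medians ran from −0.35 to −0.22 in female CT and from 0.04 to 0.31 in female KO for diet, from 0.04 to 0.31 on HFC and from −0.39 to −0.21 on CTD for female genotype, and from 0.35 to 0.62 for the female difference of diet effects. Of 306 values of named members under the other settings, 275 kept their direction and side of the threshold. Copies were added after seeing the data. Causes were not tested. No paired analysis was possible because each animal carries its own number.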
